A study of Mus musculus with 8 samples.

Results

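Epithelial and mesenchymal junction and filament genes were followed in mouse embryonic stem cells with QuantSeq, which reads polyadenylated RNA at its 3′ end. The set holds 34 genes of the 55421 in the count table. It was listed by gene name, with earlier results of these data known, so its counts are not independent support for a pattern. By role, 26 of the genes were listed as epithelial and 8 as mesenchymal, which does not say that a gene is confined to such cells. All 34 were in the table and passed the filter on low counts, as did 15137 genes in all.

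All 8 libraries came from E14 cells, a stem cell line of 129/Ola background derived from the blastocyst and grown on gelatin with serum and LIF. They form 4 groups of 2 biological duplicates. Wild-type cells (WT) and cells with a knockout of the microRNA cluster MiR-290-295 (KO) were left untreated. The other 2 groups were knockout cells given a siPOOL, a mix of many siRNAs, at 5 nM for 36 hours, directed at Tfap4 (siTfap4) or at no gene as a negative control (siNeg). The untreated libraries and the siPOOL libraries were made as separate sets. No wild-type cells received a siPOOL and no group restores the cluster. No group had another siPOOL against Tfap4 or restored Tfap4. Effects of its loss and other effects of that siPOOL therefore cannot be told apart. The labels do not say whether the KO libraries come from 1 clone or several, so differences of a clone and of the deletion cannot be told apart.

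Epithelial cells hold together through adherens junctions, built on E-cadherin and the catenins, through tight junctions, built on claudins, and through desmosomes, which anchor keratin filaments. Mesenchymal cells carry N-cadherin, vimentin filaments and a fibronectin matrix instead, and the transcription factors of the Snail, Twist and Zeb families are known to repress the epithelial genes by binding E-box words in their promoters. Pluripotent stem cells are themselves epithelial in character and depend on E-cadherin for their compact colonies. Tfap4 encodes a helix-loop-helix factor that also binds an E-box.

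Library totals ran from 8326675 to 12726123 counts, lowest in the siTfap4 group. Levels below are CPM, a gene's counts relative to the total counts of its library, scaled with TMM factors, and a gene was called when its edgeR quasi-likelihood test, adjusted over the 15137 genes by the Benjamini-Hochberg method, gave a p below 0.05. Tfap4 itself stood at 19.7 and 16.4 CPM in WT against 49.0 and 42.1 in KO cells, and at 34.4 and 37.4 with the control siPOOL against 12.4 and 15.8 with its own. It rose in KO cells (log2 fold change 1.33, SE 0.26, adjusted p = 0.00363) and fell with its siPOOL (-1.35, SE 0.27, adjusted p = 0.00365). These calls were lost without KO replicate 1 (adjusted p = 0.0533) and without siTfap4 replicate 1 (0.0575). Reads over the deleted cluster numbered 88 and 39 in WT and 0 in each of the other 6 libraries, as labelled.

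A microRNA pairs with its targets through its seed, bases 2 to 8. Of 6 mature 3′ strands of the cluster that were matched, the 3 that share a seed and that of miR-290a are shown, because a member whose 3′ UTR holds the matching word could be bound by them in WT cells. The seed is in capitals, and the sequences are from RefSeq (GRCm38.p6, chromosome 7, plus strand).
miR-291a-3p: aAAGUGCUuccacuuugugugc
miR-294-3p: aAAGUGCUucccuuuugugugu
miR-295-3p: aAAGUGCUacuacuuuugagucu
miR-290a-3p: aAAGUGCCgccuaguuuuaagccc
The first 3 share the seed AAGUGCU, and that of the last is AAGUGCC. The strands not shown, miR-291b-3p and miR-293-3p, have the seeds AAGUGCA and GUGCCGC. The words searched in 3′ UTRs on the transcript strand were AGCACTT, which matches that seed, and GCACTTA, which matches bases 2 to 7 followed by an A, and the 2 can overlap in AGCACTTA. Words for the full seeds of miR-290a-3p, miR-291b-3p and miR-293-3p were not searched, and no 3′ strand of miR-292 was matched. Of the 34 members, 5 (14.7%) held a searched word, against 21.6% of the 12786 tested genes with an annotated 3′ UTR. They were Jup, Esrp2, Vim, Zeb1 and Grhl2, the last with 2 sites, and of the members that rose in KO cells only Esrp2 is among them. The sites of 3 members and of Tfap4 follow, with the word in capitals.
Esrp2 (chr8:106131061-106131067, minus strand): atcaagtcAGCACTTgccctcag
Jup (chr11:100371253-100371259, minus strand): ccaggctcAGCACTTtctccccg
Vim (chr2:13582651-13582658, plus strand): agaagctcAGCACTTAacaactga
Tfap4 (chr16:4545091-4545098, minus strand): ctcttttaAGCACTTAcatgggtt
A matching word is a description of the sequence and was not tested as a site.

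KO and WT cells were compared to see which of these genes change when the cluster is absent. In KO cells 8 epithelial members rose, and no member of either kind fell. The risers were both epithelial splicing regulators (Esrp1 and Esrp2), the keratins Krt17, Krt42 and Krt7, the claudins Cldn3 and Cldn4, and the desmosome gene Dsp. In all, 8 of 34 members were called (23.5%), against 9.95% of all genes tested, of which 5.99% rose and 3.96% fell. The median log2 fold change of the 34 was 0.22, against -0.01 over all genes. None of the 8 mesenchymal members was called by edgeR, DESeq2 or limma-voom, and 1 of them, Vim, had an unadjusted p under 0.05 in edgeR. The levels of the 2 groups did not overlap for 18 of 34 members, 13 higher and 5 lower in KO cells, against 57.5% of all genes tested (28.9% higher and 28.6% lower).

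**Figure D1:**
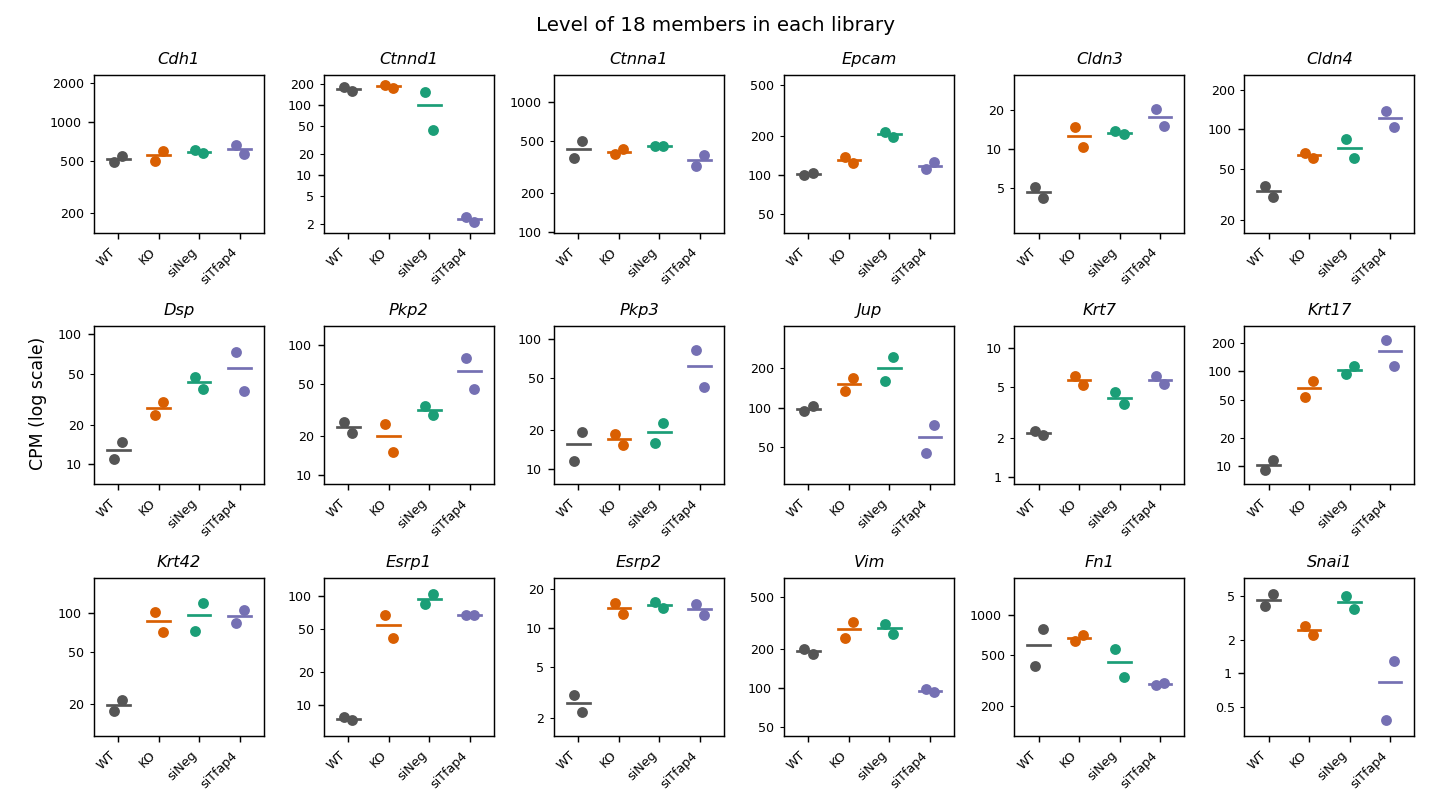
CPM on a log scale (vertical axis) of the 18 members that were called or averaged at least 50 CPM, in the 4 groups (horizontal axis). Each point is 1 library and each bar the mean of 2. Krt17, Krt42, Esrp1 and Esrp2 sit low in WT alone, while Ctnnd1, Jup and Vim sit low in siTfap4, and Ctnnd1 is split between the siNeg libraries.

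Of the called members, Esrp1 had the largest log2 fold change in KO cells. Esrp1 and Esrp2 encode RNA-binding proteins that set epithelial exon choice, for example in fibroblast growth factor receptors. Esrp1 (chr4:11331933-11386783, minus strand) stood at 7.72 and 7.27 CPM in WT and at 67.6 and 41.6 in KO cells, and at 85.4, 105, 67.5 and 67.5 in the siPOOL libraries. The WT libraries lay below all 6 others. It was 7.27-fold higher in KO cells (log2 fold change 2.86, SE 0.30, 95% interval 2.23 to 3.49, adjusted p = 2.28e-05). Esrp2 (chr8:106130319-106136974, minus strand), which holds a seed word, stood at 3.01 and 2.23 CPM in WT and at 15.5 and 12.8 in KO cells. Again both WT libraries were lowest, with 12.5 to 15.8 CPM in the siPOOL libraries, and the gene was 5.35-fold higher in KO cells (2.42, SE 0.35, adjusted p = 0.000336). An exon of Nfatc3 overlaps its 3′ end on the other strand, and the strand setting of the counting is not given in the sources used here. Among the other epithelial regulators, Grhl2 stood at 0.25 (SE 0.40) and Ovol1, at 3 to 13 counts a library in these 2 groups, at -1.45 (SE 0.70), and neither was called.

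Of the 8 keratins, the filament proteins of epithelial cells, 3 rose (37.5%) and none fell, against 5.99% and 3.96% of all genes tested. Log2 fold changes were above 0 for 5 of the 8 and below 0 for 3, with a median of 1.43. The 5 include Krt13 and Krt23, at 0 to 9 counts a library in WT and not called, so the median rests in part on low counts. Krt17, a type I keratin, stood at 9.02 and 11.6 CPM in WT and at 53.6 and 78.4 in KO cells. Every library of KO cells was above both WT libraries, and the gene was 6.4-fold higher (log2 fold change 2.68, SE 0.33, adjusted p = 0.000101). Its neighbour Krt42, another type I keratin, stood at 17.6 and 21.6 CPM in WT and at 102 and 72.0 in KO cells, 4.44-fold higher (2.15, SE 0.30, adjusted p = 0.000272). The 2 genes lie 1852 bases apart on the minus strand, Krt17 at chr11:100256217-100261029 and Krt42 at chr11:100262882-100269871. Krt7, a type II keratin, stood at 2.28 and 2.13 CPM in WT and at 6.04 and 5.11 in KO cells. The groups did not overlap (2.52-fold, 1.33, SE 0.40, adjusted p = 0.0427), but with any single library removed the call was gone (adjusted p 0.115 to 0.244). DESeq2 (0.0552) and limma-voom (0.0589) did not call it either. Nor did edgeR's legacy fit (0.0547), a fit with the replicate number as a block (0.0567) or a fit of the 4 libraries alone (0.0517). Other genes share 18.2% of its last 200 bases.

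The other 5 keratins were not called. Krt8 and Krt18, the pair that forms the filaments of simple epithelia, were at 3.94 ± 0.74 and 6.19 ± 2.08 CPM (SD, n = 2) in WT and at 3.87 ± 0.94 and 4.26 ± 0.51 in KO cells, and neither was called (log2 fold changes -0.02, SE 0.39, and -0.53, SE 0.40). Krt19 was at -0.09 (SE 0.42), with WT libraries as far apart as 3.58 and 11 CPM. Krt13 held 9 and 7 counts in WT and 27 and 25 in KO cells (1.53, SE 0.61, adjusted p = 0.135), and Krt23 held 0 and 8 against 16 and 23 (2.09, SE 0.93, adjusted p = 0.185).

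Of 6 tight junction members, 2 rose (33.3%), against 5.99% of all genes tested. Cldn3 and Cldn4 encode claudins, the strand proteins that seal the space between cells, and lie 39279 bases apart on chromosome 5. Cldn3 (chr5:134986214-134987472, plus strand) stood at 5.12 and 4.17 CPM in WT and at 14.8 and 10.3 in KO cells, 2.69-fold higher (log2 fold change 1.43, SE 0.34, adjusted p = 0.0124). The call was lost without KO replicate 1 (adjusted p = 0.160) or WT replicate 2 (0.0909), and an exon of Wbscr25 overlaps its 3′ end on the other strand. Cldn4 (chr5:134945119-134946934, minus strand) stood at 36.5 and 30.4 CPM in WT and at 66.3 and 59.8 in KO cells, without overlap (1.88-fold, 0.91, SE 0.26, adjusted p = 0.0330). Leaving out any 1 of the 4 libraries ended that call (adjusted p 0.0797 to 0.215). The claudins Cldn6 and Cldn7, occludin (Ocln) and the scaffold gene Tjp1 ran from -0.27 (SE 0.32) for Tjp1 to 0.30 (SE 0.46) for Cldn7 and were not called.

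Of the 4 desmosome members Dsp alone was called (25%), against 9.95% of all genes tested. None of the 3 adherens junction members was called by edgeR, DESeq2 or limma-voom, and 0 had an unadjusted p under 0.05 in edgeR. Dsp encodes desmoplakin, which ties the desmosome to keratin. It stood at 11.1 and 14.7 CPM in WT and at 23.9 and 30.0 in KO cells (2.10-fold, log2 fold change 1.07, SE 0.33, adjusted p = 0.0479). That value lies at the threshold. Removing any single library ended the call (adjusted p 0.0862 to 0.260), and so did limma-voom (0.0574), the legacy fit (0.0543) and an offset for base composition (0.0546). Jup, which encodes plakoglobin and serves both desmosomes and adherens junctions, stood at 93.4 and 103 CPM in WT and at 134 and 169 in KO cells, higher in both KO libraries but not called (0.63, SE 0.28, adjusted p = 0.175). Cdh1, the E-cadherin gene, stood at 497 and 548 CPM in WT against 508 and 605 in KO cells, and at 608 and 575 in siNeg against 665 and 573 in siTfap4. Its groups overlapped, and the interval of its change in KO cells ran from -0.38 to 0.56. For Ctnna1, the α-catenin gene, the levels were 371 and 502 CPM in WT and 401 and 436 in KO cells, an interval of -0.55 to 0.43. Epcam, a surface adhesion gene, stood at 101 and 104 CPM in WT and at 138 and 125 in KO cells (0.36, SE 0.22, adjusted p = 0.352).

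No mesenchymal member was called between KO and WT cells, as stated above. Vim, the vimentin gene, stood at 200 and 183 CPM in WT and at 245 and 321 in KO cells, higher in both KO libraries but not called (log2 fold change 0.56, SE 0.23, adjusted p = 0.141). Fn1, the fibronectin gene, stood at 406 and 779 CPM in WT and at 638 and 709 in KO cells, so its WT duplicates differed by more than the groups. Snai1, which encodes the repressor Snail, stood at 4.06 and 5.14 CPM in WT and at 2.68 and 2.23 in KO cells (-0.89, SE 0.43, adjusted p = 0.219). Zeb1 was at 21.5 ± 4.01 CPM (SD, n = 2) in WT and 15.1 ± 3.45 in KO cells (-0.51, SE 0.29, adjusted p = 0.303). Cdh2, Snai2, Twist1 and Zeb2 held 2 to 20 counts a library in these 2 groups, and their SEs ran from 0.63 to 0.89.

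**Figure D2:**
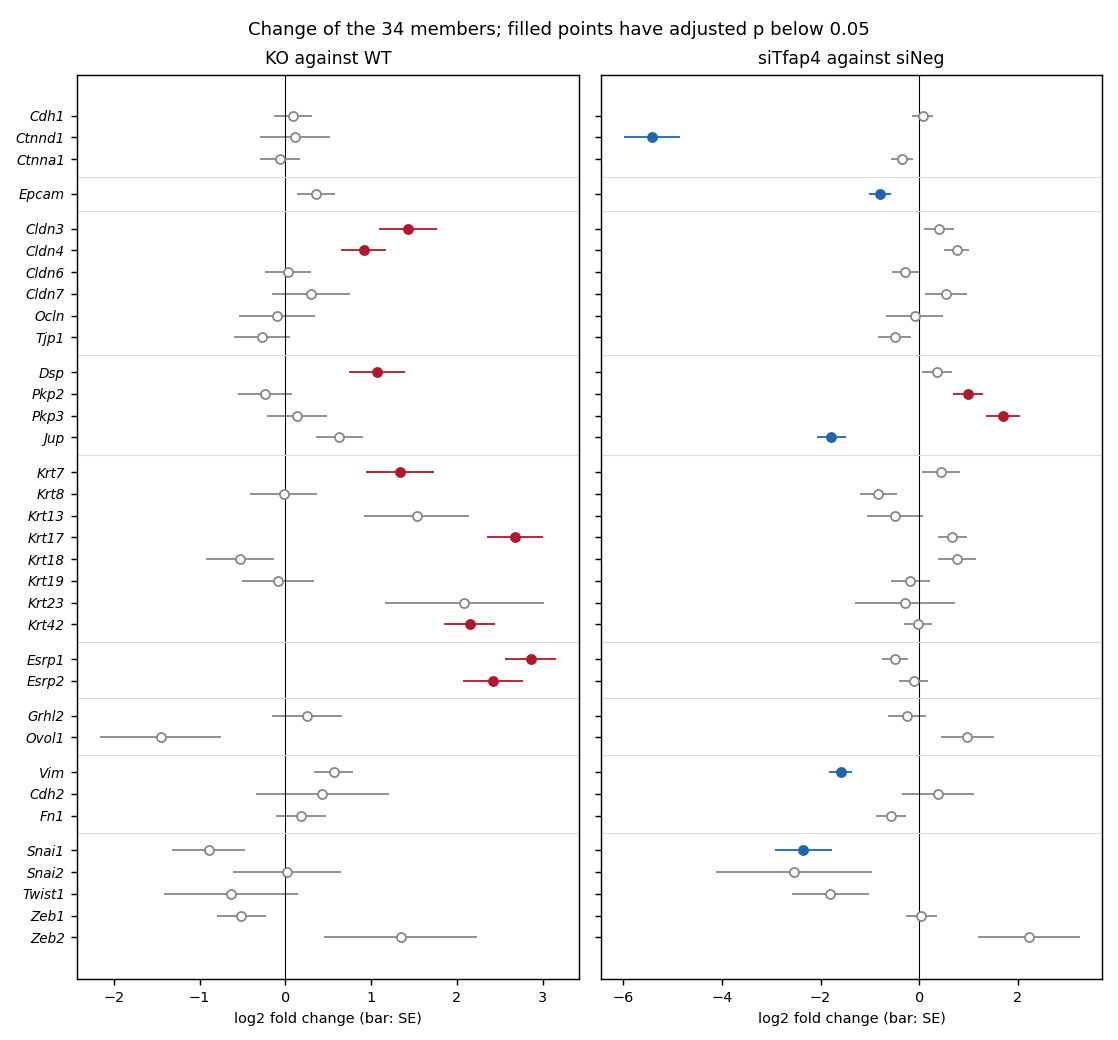
Log2 fold change with its SE (horizontal axis) of each of the 34 members (vertical axis, ordered by role) in KO against WT cells and in siTfap4 against siNeg cells; the panels have different horizontal ranges. Filled points had an adjusted p below 0.05, red above 0 and blue below. The 8 filled points on the left are all above 0, and on the right 5 of 7 are below.

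The comparison of siTfap4 with siNeg cells asks what follows the siPOOL against Tfap4 in cells without the cluster. None of the 8 members that rose in KO cells was called here. Ctnnd1, Jup, Vim, Snai1 and Epcam fell, and the plakophilins Pkp3 and Pkp2 rose. That is 7 of 34 members called (20.6%), against 15.4% of all genes tested, of which 4.36% rose and 11.1% fell. The share that rose among all called genes, 28.3% here, was 2.5% without siTfap4 replicate 1, 4.7% without siNeg replicate 1 and 36.6% without siTfap4 replicate 2. The median of the 34 was -0.15, against 0.01 over all genes. For 21 members the groups did not overlap, 9 higher and 12 lower in siTfap4, against 58.3% of all genes tested (28.9% higher and 29.3% lower).

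Of the 3 adherens junction members 1 fell (33.3%, against 11.1% of all genes tested) and the others were not called. Ctnnd1 encodes p120-catenin, which holds cadherins at the cell surface, and lies at chr2:84600071-84650765 on the minus strand. Untreated libraries stood at 184 and 158 CPM in WT and 195 and 175 in KO cells. With siPOOLs the level was 155 and 44.0 CPM in siNeg, and 2.55 and 2.12 in siTfap4, from 20 and 18 counts. Both siTfap4 libraries were far below all others, and siNeg replicate 2 was below siNeg replicate 1 and every untreated library. Against siNeg, siTfap4 cells were 42.6-fold lower (log2 fold change -5.41, SE 0.57, interval -6.66 to -4.17, adjusted p = 0.000102). Without siNeg replicate 1 the change was -4.25 (adjusted p = 4.06e-05), and without siNeg replicate 2 it was -6.06. Cdh1, which the same complex contains, was at 0.07 (SE 0.22, interval -0.40 to 0.54). Ctnna1 stood at 459 and 460 CPM in siNeg and 324 and 397 in siTfap4, lower in both but not called (-0.35, SE 0.23, adjusted p = 0.323).

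Among the 4 desmosome members 2 rose and 1 fell, where 4.36% of all genes tested rose and 11.1% fell. Jup (chr11:100368958-100397763, minus strand) stood at 161 and 244 CPM in siNeg and at 44.5 and 73.4 in siTfap4. The siTfap4 libraries were the lowest of the 8, and the gene was 3.43-fold lower (log2 fold change -1.78, SE 0.28, adjusted p = 0.000677). Pkp3 and Pkp2 encode plakophilins, which link desmosomal cadherins to desmoplakin. Pkp3 (chr7:141078218-141090510, plus strand) stood at 11.6 to 22.7 CPM in the 6 other libraries and at 82.8 and 42.6 in siTfap4, 3.24-fold higher than in siNeg (1.69, SE 0.34, adjusted p = 0.00368). Pkp2 (chr16:16213318-16272712, plus strand) stood at 34 and 28.9 CPM in siNeg and at 78.9 and 46.1 in siTfap4, 1.98-fold higher (0.99, SE 0.31, adjusted p = 0.0390). In both plakophilins siTfap4 replicate 1 was the higher library. The call of Pkp3 was lost without siTfap4 replicate 1 (adjusted p = 0.105) or siNeg replicate 1 (0.0808), and that of Pkp2 without either of these (0.428 and 0.144) or siNeg replicate 2 (0.167). Dsp stood at 47.2 and 38.2 CPM in siNeg and at 73.4 and 36.8 in siTfap4, so its groups overlapped.

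Epcam (chr17:87635979-87651129, plus strand) stood at 215 and 198 CPM in siNeg and at 112 and 126 in siTfap4. The fall was 1.74-fold (log2 fold change -0.80, SE 0.22, adjusted p = 0.0230), and the siTfap4 libraries lay within the range of the untreated libraries, 101 to 138 CPM. The call was lost without siNeg replicate 1 (adjusted p = 0.0957) or siTfap4 replicate 1 (0.138), and when the 4 siPOOL libraries were fitted alone (0.0660). Cldn4 stood at 84.3 and 60.6 CPM in siNeg and at 140 and 105 in siTfap4, higher without overlap, and just missed the threshold (0.75, SE 0.25, adjusted p = 0.0532). It was called in 7 alternatives, among them DESeq2 (0.0299), limma-voom (0.0470) and RLE scaling (0.0482). Cldn3 stood at 13.8 and 13 CPM in siNeg and at 20.5 and 15.0 in siTfap4 (0.40, SE 0.31). Thus 0 of 6 tight junction members were called by edgeR and 1, Cldn4, by DESeq2 and by limma-voom, and the same gene alone had an unadjusted p under 0.05 in edgeR.

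Vim and Snai1, of the 8 listed as mesenchymal, fell with the knockdown (25%), against 11.1% of all genes tested. Vim (chr2:13573927-13582826, plus strand) stood at 314 and 262 CPM in siNeg and at 97.6 and 93.5 in siTfap4, below the untreated libraries as well. It was 3.01-fold lower (log2 fold change -1.59, SE 0.23, adjusted p = 0.000355). Snai1 (chr2:167538195-167542814, plus strand) held 58 and 39 counts in siNeg and 3 and 11 in siTfap4, or 4.97 and 3.77 against 0.382 and 1.30 CPM. That is 5.08-fold lower (-2.34, SE 0.57, adjusted p = 0.0119). Dropping siNeg replicate 1 (0.0955) or siTfap4 replicate 1 (0.183) ended that call. Fn1 stood at 547 and 333 CPM in siNeg and at 293 and 299 in siTfap4, lower in both but not called (-0.57, SE 0.30, adjusted p = 0.203). Twist1 (36 and 12 counts against 3 and 7) and Snai2 (4 and 5 against 1 and 0) were lower without overlap, and Zeb2 (4 and 1 against 4 and 14) was at 2.22 (SE 1.03), none of them called. Zeb1 was level at 0.04 (SE 0.31).

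Keratins and splicing regulators were not called in this comparison by edgeR, DESeq2 or limma-voom. DESeq2 gave an adjusted p for 7 of the 8 keratins. In edgeR 2 of 8 keratins, Krt8 and Krt17, and neither Esrp gene had an unadjusted p under 0.05. Krt17 stood at 92.5 and 113 CPM in siNeg and at 212 and 115 in siTfap4 (log2 fold change 0.67, SE 0.29, adjusted p = 0.133), with replicate 1 far above replicate 2. It was called without siTfap4 replicate 2 (1.03, adjusted p = 0.0212). Krt42 stood at 72.6 and 121 CPM in siNeg and at 83.8 and 107 in siTfap4 (interval -0.61 to 0.57). Krt7 was at 4.54 and 3.68 CPM in siNeg and at 5.99 and 5.19 in siTfap4 (0.44, SE 0.38). For Krt8 the value was -0.83 (SE 0.38, adjusted p = 0.150) and for its partner Krt18 it was 0.76 (SE 0.39, adjusted p = 0.197), with groups that did not overlap in either gene. Esrp1 stood at 67.5 CPM in both siTfap4 libraries (-0.50, SE 0.26) and Esrp2 at 13.8 ± 1.88 (SD, n = 2), above both WT libraries, which belong to the other set.

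Depth and the trend with base composition moved with siTfap4. The siTfap4 libraries held 8326675 and 8829051 counts, against 9925557 to 12726123 in the 6 others. The trend of log2 level with GC of the last 100 transcript bases, per 10 points of GC, was 0.29 and 0.20 in the siTfap4 libraries, -0.12 and 0.04 in siNeg, and between -0.12 and -0.07 in the 4 untreated libraries. Of the members that fell, Snai1 has 18% GC there, Jup and Vim 25%, Ctnnd1 30% and Epcam 54%, and of those that rose Pkp2 has 45% and Pkp3 54%. With an offset for this trend Ctnnd1 was at -5.03, Jup at -1.32 and Vim at -1.07, all still called (adjusted p 0.000135, 0.00973 and 0.00653), and Pkp3 at 1.28 (0.0132). Epcam was at -1.20, further from 0 than without the offset (adjusted p = 0.00335). Snai1 (-1.74, adjusted p = 0.0557) and Pkp2 (0.71, 0.129) lost their calls.

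**Figure D3:**
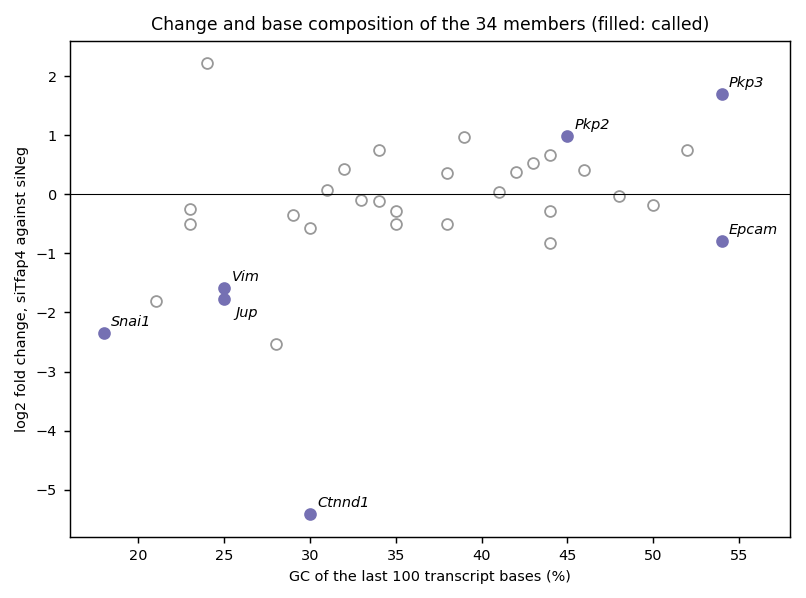
GC of the last 100 transcript bases in percent (horizontal axis) against the log2 fold change of siTfap4 over siNeg (vertical axis) for the 34 members, 1 point each; filled points were called. Snai1, Jup, Vim and Ctnnd1 lie at 18 to 30% GC and below 0, Pkp2 and Pkp3 at 45 and 54% and above 0, and Epcam lies at 54% and below 0.

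The change after the knockdown was then set against the change in KO cells, 2 comparisons that share no library. No member was called in both, 15 were called in 1 of them and 19 in neither. The share of all genes called in both was not counted. With 23.5% and 20.6% of the members called, the lack of overlap cannot be called particular to them. A test of the difference between the changes called 9 of 34 members (26.5%), against 15.9% of all genes tested, 4.6% with the higher and 11.3% with the lower change after the knockdown. The change after the knockdown was the lower one for Ctnnd1 (difference of log2 fold changes -5.53, SE 0.71), Esrp1 (-3.36, SE 0.39), Esrp2 (-2.53, SE 0.46), Jup (-2.41, SE 0.40), Krt42 (-2.17, SE 0.41), Vim (-2.15, SE 0.33), Krt17 (-2.01, SE 0.43) and Epcam (-1.16, SE 0.31). It was the higher one for Pkp3 (1.56, SE 0.48). Adjusted p-values ran from 6.89e-05 for Esrp1 to 0.0389 for Pkp3. For Epcam, dropping any single untreated library ended the call (adjusted p 0.0565 to 0.111). That of Pkp3 was lost without any 1 library other than WT replicate 1 and siTfap4 replicate 2 (0.0516 to 0.224), and also with the GC offset (1.12, 0.0963), with that offset and the replicate block (0.123), with the block alone (0.0856) and in limma-voom (0.0558). For Cldn3 (-1.02, SE 0.46), Cldn4 (-0.16, SE 0.36), Dsp (-0.70, SE 0.45), Krt7 (-0.90, SE 0.55), Pkp2 (1.22, SE 0.44) and Snai1 (-1.45, SE 0.74) the 2 changes were not shown to differ.

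**Figure D4:**
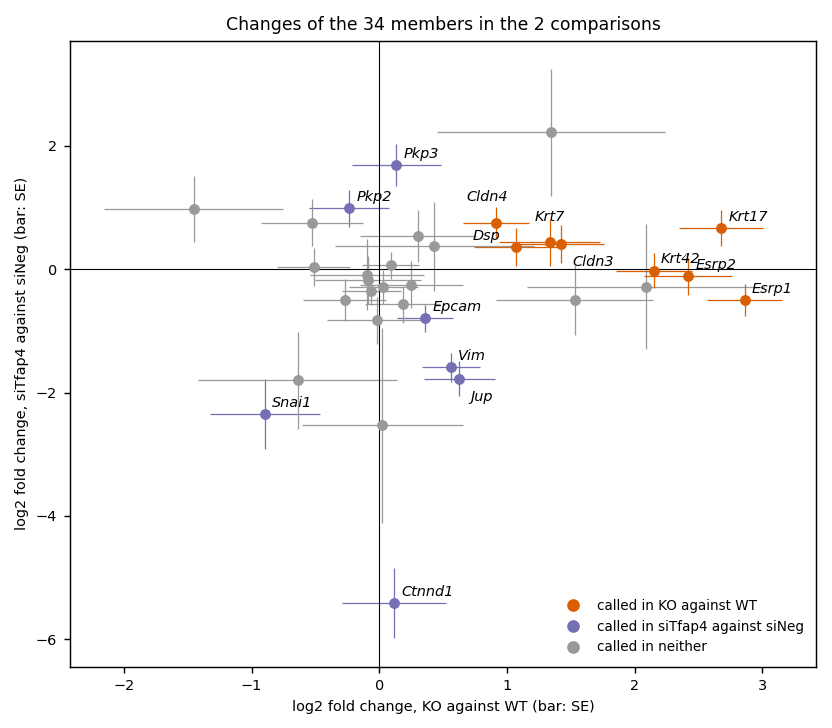
Log2 fold change in KO against WT cells (horizontal axis) and in siTfap4 against siNeg cells (vertical axis) for the 34 members, with SE bars. The 8 members called in the first comparison (orange) lie between -0.50 for Esrp1 and 0.75 for Cldn4 on the vertical axis, and the 7 called in the second (violet) lie between -0.89 and 0.63 on the horizontal axis.

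Negative control siPOOL cells were also set against untreated KO cells, to describe the levels across all 4 groups. Here set and transfection cannot be told apart, and each group is also an arm of a comparison above. No member was called by edgeR, DESeq2 or limma-voom, against 0.00661% of all genes tested in edgeR. DESeq2 gave an adjusted p for only 25 of the 26 epithelial and 4 of the 8 mesenchymal members here. An unadjusted p under 0.05 in edgeR was found for 11 of 34, against 1737 of the 15137 genes tested. The median log2 fold change of the 34 was 0.19, against -0.02 over all genes, with 25 members above 0 and 9 below. In 21 members the groups did not overlap, 14 higher and 7 lower in siNeg, against 44.9% of all genes (20.5% higher and 24.4% lower). The differences nearest to a call were those of Esrp1 (log2 fold change 0.80, SE 0.26), Epcam (0.65, SE 0.22) and Krt19 (1.16, SE 0.40), with adjusted p-values of 0.229, 0.248 and 0.261. Ctnnd1 was called without siNeg replicate 1 (-2.07, adjusted p = 0.00789), since only the lower siNeg library then remained.

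Snail and Zeb repressors bind CACCTG, which reads CAGGTG on the other strand, and Tfap4 binds CAGCTG. Promoters, taken as 250 bases before to 50 after the start of a RefSeq gene (GRCm38.p6), were found for 20 of the 34 members, 27 promoters in all. CACCTG or CAGGTG occurred in 13 of the 27 (48.1%), against 20.2% of the 32851 promoters in the table, and in 12 of the 20 genes. CAGCTG, which is its own complement, occurred in 3 (11.1%), against 16.3%, and the general word CANNTG, which covers all of these, in 16 (59.3%), against 72.3%. Of the 15 members called in either comparison, 10 had a promoter and 6 of these held CACCTG or CAGGTG, which are shown with 12 bases on each side and the word in capitals.
Cldn3 (chr5:134986233-134986262, plus strand): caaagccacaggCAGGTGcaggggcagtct
Cldn4 (chr5:134946931-134946960, minus strand): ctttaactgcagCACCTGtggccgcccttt
Cldn4 (chr5:134946906-134946935, minus strand): cctttcttgttgCAGGTGcaggcaggaaag
Dsp (chr13:38151285-38151314, plus strand): gaagaagccgacCAGGTGtggcctgggcgc
Krt7 (chr15:101412347-101412376, plus strand): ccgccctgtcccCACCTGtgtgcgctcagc
Epcam (chr17:87635780-87635809, plus strand): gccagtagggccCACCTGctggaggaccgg
Epcam (chr17:87635948-87635977, plus strand): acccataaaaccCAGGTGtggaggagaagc
Snai1 (chr2:167538057-167538086, plus strand): gcagcccaggcgCACCTGctccggtctcag
The first 5 lines belong to 4 of the members that rose in KO cells, and the last 3 to members that fell with the knockdown. Either word also occurred in promoters of Cldn6, Cldn7, Ocln, Krt8, Krt18 and Krt23, which were not called. Promoters of Tjp1, Krt13, Twist1 and Zeb2, also not called, lacked both. Among called members Ctnnd1, Jup, Krt42 and Vim lacked both, and no promoter was found for Krt17, Esrp1, Esrp2, Pkp2 or Pkp3. The words therefore do not set the called members apart. The words in Cldn4 and Dsp lie within 14 bases of the start. Binding was not measured here, and a match describes the letters of this window only.

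Other genes of the same structures, from lists that do not hold the members, changed in places. Over all genes tested, 9.95% were called in KO cells and 15.4% in siTfap4. In siTfap4 the called share was 13.3% of 15 tight junction and polarity genes and 33.3% of 6 other filament genes. Of 10 tested adherens junction and nectin genes 1 fell in KO cells (10%) and 2 in siTfap4 (20%), near the shares over all genes. Nectin1, an adhesion receptor gene, went from 39.6 ± 2.74 CPM (SD, n = 2) in WT to 17.0 ± 3.21 in KO cells (log2 fold change -1.22, SE 0.33, adjusted p = 0.0287) and from 13.7 ± 8.08 in siNeg to 5.09 ± 0.36 in siTfap4 (-1.43, SE 0.40, adjusted p = 0.0247). Nectin4 fell in siTfap4 (-1.94, SE 0.58). The calls of Nectin1 were lost in KO cells without any 1 library (adjusted p 0.0718 to 0.237) and in siTfap4 without siNeg replicate 1 (0.353) or either siTfap4 library (0.164 and 0.0921), as was that of Nectin4 (0.245, 0.220 and 0.100). In siTfap4 limma-voom called 0 of the 10 (Nectin1 0.0608, Nectin4 0.0558), Nectin1 was not called with the GC offset (-0.96, 0.100) and Nectin4 was not with the replicate block (0.0528). Of 15 tight junction and polarity genes none was called in KO cells by edgeR, DESeq2 or limma-voom, with 4 at an unadjusted p under 0.05, and in siTfap4 Cgn, the cingulin gene, fell by 1.98 (SE 0.30) while its relative Cgnl1 rose by 0.88 (SE 0.28), a call lost without siTfap4 replicate 1 (adjusted p = 0.344) or either siNeg library (0.217 and 0.0892), with the GC offset (0.74, 0.0816), with the replicate block (0.0535), with no filter (0.0530) and with the 4 libraries alone (0.0740). No other desmosome gene of 6 was called by edgeR, DESeq2 or limma-voom in either comparison (1 at an unadjusted p under 0.05 in each). DESeq2 gave an adjusted p for 5 of the 6 in siTfap4. Pkp4, the most abundant, was at 0.13 (SE 0.22) in KO cells and 0.51 (SE 0.22) in siTfap4. Of 6 other filament genes none was called in KO cells by edgeR or DESeq2 and 1 by limma-voom, with 1 at an unadjusted p under 0.05 in edgeR, while in siTfap4 the keratin gene Krt10 fell (-3.02, SE 0.50) and the lamin gene Lmna rose (1.10, SE 0.33). Lmna lost its call without siTfap4 replicate 1 (adjusted p = 0.529) or either siNeg library (0.193 and 0.124), with the GC offset (0.73, 0.125) and in limma-voom (0.0523), while Cgn and Krt10 were called under all 14 alternatives.

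Among gap junction genes, which encode channels between cells, Gja1 fell in KO cells from 47.9 ± 12.9 to 10.7 ± 3.30 CPM (log2 fold change -2.16, SE 0.34, adjusted p = 0.000725) and Gjc1 fell (-0.80, SE 0.24). Gja1 fell in siTfap4 too (-1.65, SE 0.38, adjusted p = 0.00907). Of 10 other epithelial regulators the ETS factor gene Elf3 (1.06, SE 0.31) and the splicing regulator gene Rbm47 (0.86, SE 0.25) rose in KO cells. That is 20%, against 9.95% of all genes tested. Rbm47 fell in siTfap4 (-1.31, SE 0.25), as did Ovol2, a relative of Ovol1 (-1.45, SE 0.36), or 20% against 15.4% of all genes. Of 7 other mesenchymal genes the matrix protease gene Mmp2 fell in KO cells (-1.62, SE 0.38), or 14.3% against 9.95%. None of the 7 was called in siTfap4 by edgeR, DESeq2 or limma-voom, with 0 at an unadjusted p under 0.05 in edgeR. DESeq2 gave an adjusted p for 6 of these 7. Gja1 in KO cells and Rbm47 in siTfap4 held under all 14 alternatives. In KO cells the calls of Gjc1 (adjusted p 0.106 to 0.343) and Rbm47 (0.0554 to 0.422) were lost without any 1 library, that of Mmp2 without KO replicate 1 (0.194) or WT replicate 2 (0.0602), and that of Elf3 without KO replicate 1 (0.317), KO replicate 2 (0.0610) or WT replicate 1 (0.331). The replicate block ended the calls of Elf3 (0.0661) and Rbm47 (0.0673) in KO cells, the legacy fit those of Elf3 (0.0510) and Gjc1 (0.0547), the GC offset (0.0513) and no filter (0.0565) that of Gjc1, and the 4 libraries alone that of Elf3 (0.0537). In siTfap4 that of Gja1 was lost without siNeg replicate 1 (0.145) or siTfap4 replicate 1 (0.0867), and that of Ovol2 without either siNeg library (0.0513 and 0.0604) or siTfap4 replicate 1 (0.183).

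Markers of other cell types moved between the same groups. In bulk RNA, fewer cells of a type and less RNA per cell cannot be told apart. The summed level of 8 primitive endoderm markers was 132 to 137 CPM in WT and 14.5 to 15.3 in KO cells. Of the 8, 6 fell (75%), while of all genes tested 9.95% were called in KO cells and 3.96% fell. For 8 trophectoderm markers it was 110 to 120 CPM in WT and 244 to 389 in KO cells, carried by Tfap2c, the 1 of 5 tested that was called, with Elf5 at 0 in KO cells. The 8 fibroblast markers summed to 30.9 to 54.6 CPM in WT and 11.8 to 22.4 in KO cells, with Col3a1 and Postn at 0 in all 8 libraries. Of the 3 tested, Col1a1 and Thy1 fell in KO cells, calls lost under 10 and 3 of 14 alternatives. The sum of 8 pluripotency markers was 3335 to 3471 CPM in WT and 3474 to 3492 in KO cells, where Utf1 alone was called and fell. That call was lost without any 1 library. In siNeg the sum was 3246 to 3446 CPM and in siTfap4 2366 to 2505. In siTfap4 against siNeg Dppa5a and Nanog fell and Pou5f1 rose, 3 of 8 (37.5%), against 15.4% of all genes tested. Another gene, Pigp, shares 39.4% of the last 200 bases of Dppa5a. Without siNeg replicate 1 the calls of Nanog (adjusted p = 0.0576) and Pou5f1 (0.0934) were lost, and that of Pou5f1 also without siTfap4 replicate 1 (0.114). The part of these markers in the member changes was not tested.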

How the data were processed

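The authors deposited 1 table of whole-number read counts per gene for the 8 QuantSeq libraries. Per the submitters' processing notes, reads were trimmed with Trim Galore and the genome build was GRCm38; of the aligner, counter, strand setting and annotation release, none is given in the sources used here. Gene symbols came from GENCODE, which named 99.5% of 55421 genes. Counts were analysed with edgeR 4.0.16 in R 4.3.3: filterByExpr (15137 genes kept), TMM scaling, and a robust quasi-likelihood fit of 4 group means to all 8 libraries (4 residual degrees of freedom). Two-sided p-values were adjusted over all genes (Benjamini-Hochberg) at a threshold of 0.05. CPM were computed here from the counts. Standard errors are the log2 fold change divided by the root of the F statistic. The p-values measure the spread between duplicates pooled over the 4 groups. The code was tested on simulated data.

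The members and gene lists were chosen with earlier results of these data known, so no pattern here is independent support for them. Named genes were Tfap4, all 34 members, with every library given for those called or averaging at least 50 CPM, and of each other list up to 4 called genes a comparison, or the most abundant, apart from a result that is not reported here. Alternatives were DESeq2 1.42.0, limma-voom 3.58.1, RLE scaling, the legacy fit, 2 other filters, the 4 libraries of a comparison alone, the replicate number as a block, an offset for GC of the last 100 bases (lowess, span 0.3) with and without that block, and each library left out.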

Additional observations from a re-analysis of the deposited data

How the results depend on the processing

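Of the 8 member calls in KO against WT, 4 (Krt17, Krt42, Esrp1 and Esrp2) held under all 14 alternatives, as did 3 of the 7 in siTfap4 against siNeg (Ctnnd1, Jup and Vim). In the test of the difference 7 of 9 held under all 17. No called member changed direction under an alternative. Leaving out 1 library gave 4 to 5 members called in KO against WT, 3 to 9 in siTfap4 against siNeg, 0 to 1 in siNeg against untreated KO, and 7 to 10 in the test of the difference. Over all genes it gave 629 to 880 calls, 522 to 2961 and 1 to 76 in the first 3. In those fits the remaining library of the group is taken to vary as the other groups do. With 1 library left out Tfap4 ran from 1.21 to 1.48 in KO against WT and from -1.55 to -1.19 in siTfap4 against siNeg. With the GC offset and all libraries, edgeR put Tfap4 at 1.29 (adjusted p = 0.00342) and -1.06 (0.0141), the latter closer to 0 than without the offset.

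Genes called between siNeg and untreated KO numbered 1 as reported, 2 with the 4 libraries alone, 138 with DESeq2, 16 with the GC offset, 27 with the GC offset and the block, 120 with no filter, 18 with the replicate block and 11 with RLE scaling. The cause was not tested. Of the genes called in siTfap4 against siNeg 28.3% rose as reported and 18.1% with the 4 libraries alone, and leaving out 1 library gave 2.5% to 36.6%. In KO against WT 60.2% rose, and 55.2% to 72.7% with 1 library left out. With the replicate number as a block, 1337 and 2064 genes and 7 and 8 members were called in KO against WT and siTfap4 against siNeg. Krt7 then lost its call (adjusted p = 0.0567), Cldn4 gained one in siTfap4 (0.0418), and Pkp3 lost that of the difference (0.0856). Deviations of same-numbered libraries correlated at -0.06 between WT and KO and 0.14 between siNeg and siTfap4, so the numbers are not known to pair the libraries. The titles of WT replicate 1 and KO replicate 2 share a code (CC) that the labels do not explain, and the block does not follow it. Jup was called in KO against WT with the 4 libraries alone (0.64, adjusted p = 0.0355). Depth limits the members at a few counts, such as Zeb2, whose change in siTfap4 had an SE of 1.03.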

Other observations

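A further keratin gene, chosen after its values were seen, moved with the knockdown of Tfap4. Krt16, a type I keratin gene of stressed and fast-dividing epidermis that is not among the members, stood at 0.488 and 0.485 CPM in WT against 0.612 and 0.825 in KO cells. With siPOOLs it was at 1.46 and 1.06 CPM in siNeg against 4.84 and 3.07 in siTfap4. The siTfap4 libraries, with 38 and 26 counts, were the highest of the 8. Krt16 was called in siTfap4 against siNeg (log2 fold change 1.62, SE 0.49, adjusted p = 0.0353) and not in KO against WT (0.55, SE 0.75). That call was lost under 9 of 14 alternatives. They were the GC offset (1.24, adjusted p = 0.103), the GC offset with the replicate block (0.103), DESeq2 (0.0751), limma-voom (0.0549), the legacy fit (0.0633), the 4 libraries alone (0.0501), and fits without siTfap4 replicate 1 (0.306) or either siNeg library (0.130 and 0.138).

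The 2 siNeg libraries differed in Ctnnd1 more than in the other adherens junction members. They stood at 155 and 44.0 CPM for Ctnnd1, at 608 and 575 for Cdh1, and at 459 and 460 for Ctnna1. Tjp1 stood at 54.9 and 26.3 CPM in siNeg and at 37.3 and 20.4 in siTfap4, and Grhl2 at 33.2 and 14.6 in siNeg and at 26.6 and 13.9 in siTfap4, so replicate 1 was the higher library in both groups. Ribosomal protein genes took 7.90% and 11.6% of counts in siNeg and 8.12% and 10.8% in siTfap4, the lower share in replicate 1. Mitochondrial genes took 6.81% and 5.08% in siNeg but 5.46% and 6.84% in siTfap4, so the replicates did not differ alike in every measure.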
